A study of Mus musculus with 59 samples.

Results

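The nuclear-encoded respiratory chain genes are the 94 genes, of 41227 in the table of expression values, whose symbols begin with Nduf, Uqcr, Cox4 to Cox8 or Atp5 or are Sdha, Sdhb, Sdhc, Sdhd, Cyc1 or Cycs. Pseudogene rows were left out, and no measured value was used in the choice. Of the 94 genes, 43 belong to complex I, namely 7 core subunits, 29 accessory subunits and 7 assembly factors. The remainder comprise 4 genes of complex II, 9 of complex III, 20 of complex IV, 17 of complex V and Cycs, which encodes the mobile carrier cytochrome c. The 17 of complex V are 5 F1 genes, 10 Fo and stalk genes and 2 related genes, Atp5s and Atp5sl, which were counted there by name. Ndufa4 and its relative Ndufa4l2 were counted with complex IV, although their names place them in complex I.

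Expression was measured by RNA sequencing of the pons of C57BL/6 mice that model spinocerebellar ataxia type 3 (SCA3), a neurodegenerative disease caused by an expanded glutamine repeat in the deubiquitinase ataxin-3. The libraries form 2 sets, and every comparison was made within a set. Set 1 held 3 mice homozygous for a duplicated 82-glutamine repeat knocked into Atxn3 (dupKi-hom in the labels, dupKIHom here), 3 Atxn3 knockout mice (Atxn3KO) and 3 wild-type mice (WT). Set 2 held 6 mice heterozygous for the duplicated repeat (dupKIHet), 4 heterozygous (KIHet) and 4 homozygous (KIHom) for a single 82-glutamine repeat, 4 with a hemizygous human ATXN3 transgene of 84 glutamines (YACQ84), 4 with a hemizygous human ATXN3 transgene of 15 glutamines (YACQ15) and 6 WT mice. Each library is 1 mouse by the study's design text, and neither age nor sex stands in the labels used here.

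Mitochondria make most of a neuron's ATP by passing electrons from NADH and succinate along complexes I to IV to oxygen while protons are pumped across the inner membrane. Complex I takes electrons from NADH, complex II is succinate dehydrogenase and also a citric acid cycle enzyme, complex III passes electrons to cytochrome c, and complex IV, cytochrome c oxidase, reduces oxygen. Complex V, the ATP synthase, lets protons flow back through its membrane part, Fo, and makes ATP in its catalytic part, F1. Most subunits are encoded in the nucleus and a few in mitochondrial DNA, and several complex IV subunits exist as paired isoforms, of which 1 predominates in most tissues and the other in muscle, lung or testis.

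Values are length- and library-scaled fragment levels (FPKM) as deposited by the authors, which correct for transcript length but hide how deeply a library was sequenced. Atxn3 checked the labels of set 1 and, in set 2, those of dupKIHet and WT only. It was 10.6, 12.9 and 14.1 FPKM in dupKIHom, 0.335, 0.186 and 0.197 FPKM in Atxn3KO, and 6.23, 7.49 and 7.40 FPKM in WT, so the 3 genotypes of set 1 did not overlap. In set 2 the lowest dupKIHet library had 10.4 FPKM of Atxn3 and the highest WT library 8.15 FPKM. The pons samples expressed neuronal markers throughout, with 18 such genes summing to between 4608 and 6673 FPKM. Gad1, which is among the 18, was listed at 0 in all of set 2. Ttr, the main transcript of choroid plexus epithelium, varied from 4.51 to 2909 FPKM in set 1 and from 14.2 to 3125 FPKM in set 2, and its part in the results was tested only through the settings named beside them. In set 2 the 6 libraries numbered 1, the first-numbered column of each genotype, stood apart from the other 22: with a term for them in the fit, 55.4% of 14807 genes differed. Also in set 2, Mbp, mt-Cytb, mt-Nd4, mt-Nd4l, mt-Nd5 and mt-Nd6 were listed at 0 in every dupKIHet and WT library and expressed in the other genotypes, and mt-Nd1 was at 0 in dupKIHet alone. These 7 genes were left out of the tests. In every library of set 2, whatever the genotype, mt-Co1, mt-Co3, mt-Atp6 and mt-Atp8 were also listed at 0. With those included, the 13 mitochondrially encoded genes summed to between 5626 and 10985 FPKM in dupKIHet. The sums were 29809 to 55586 FPKM in KIHet and 13308 to 23551 FPKM in WT. For Mbp, mt-Cytb, mt-Nd4, mt-Nd4l, mt-Nd5 and mt-Nd6, values of dupKIHet and WT were thus listed differently from those of the other genotypes. In comparisons across that line the difference cannot be told apart from genotype.

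The genes were abundant in the pons. Averaged over libraries, their median level was 169 FPKM in set 1 and 145 FPKM in set 2, against 9.80 FPKM in set 1 and 9.61 FPKM in set 2 for all genes tested. Complexes III to V were higher than I and II: the median over members was 127 FPKM for complex I, 113 for complex II, 198 for complex III, 242 for complex IV and 298 for complex V in set 1. Set 2 had the same order of complexes, with medians of 121, 102, 170, 217 and 284 FPKM for complexes I to V.

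The most abundant member was Atp5b, the catalytic beta subunit of F1, at 956 ± 43.5 FPKM in set 1 (SD, n = 9) and 1344 ± 222 FPKM in set 2 (SD, n = 28). Cox6c and Cox4i1, structural subunits of complex IV, led their complex in set 1 at 785 ± 57.1 and 761 ± 58.0 FPKM, and Cox6c and Ndufa4 did so in set 2 at 871 ± 80.6 and 869 ± 104 FPKM. Ndufa3, a membrane-arm accessory subunit, led complex I at 417 FPKM in set 1 and 471 FPKM in set 2. Next in complex I came Ndufb8 at 330 FPKM in set 1 and Ndufs5 at 291 FPKM in set 2. Uqcrh, the hinge protein that helps cytochrome c dock, led complex III at 479 FPKM in set 1 and 530 FPKM in set 2, followed by Uqcr10 at 269.9 FPKM in set 1 and Uqcrb at 381 FPKM in set 2. Within complex II the flavoprotein Sdha, which binds succinate, stood above the iron-sulfur protein Sdhb: 233 against 123 FPKM in set 1 and 440 against 129 FPKM in set 2. The membrane anchors Sdhc and Sdhd were lower still, at 74.2 and 103 FPKM in set 1 and 43.7 and 74.5 FPKM in set 2. Cycs was close between the sets, at 75.8 and 76.7 FPKM.

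**Figure D1:**
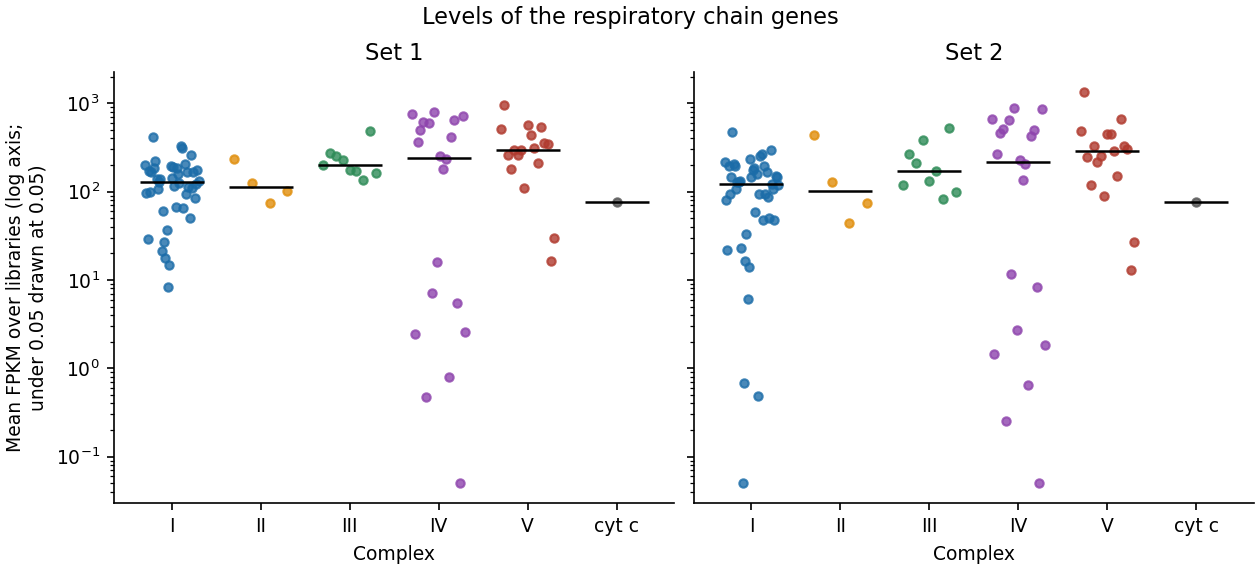
Mean FPKM of each member over all libraries of its set, on a log axis, by complex; points are members and black lines are the medians of each complex. Complex V holds the highest median in both sets, and a few complex IV isoforms lie far below the other members.

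Muscle, lung and testis isoforms were low beside their common partners, although Cox7a1 in set 1 (15.9 FPKM) and Cox6b2 in set 2 (11.6 FPKM) lay above the all-gene medians. As a percentage of the summed level of the isoform pair, averaged over libraries, Cox6a2 made up 0.0772% in set 1 and 0.0492% in set 2, Cox4i2 0.320% and 0.218%, and Ndufa4l2 0.364% and 0.210%. Cox8b reached 0.843% in set 1 and 1.63% in set 2, and Cox6b2, the testis partner of Cox6b1, 1.17% and 1.78%. Cox7a1, the heart and muscle partner of Cox7a2, differed most between the sets, at 5.91% in set 1 and 1.18% in set 2. Differences between the sets were not tested. The 12 muscle markers summed to between 2.82 and 16.4 FPKM over all libraries, against 4608 FPKM or more for the neuronal markers. The 3 genes for the c subunit of the ATP synthase ring encode the same mature protein, and they kept fixed proportions: Atp5g3 gave 58.3%, Atp5g1 30.4% and Atp5g2 11.3% of their sum in set 1, and 57.04%, 31.6% and 11.4% in set 2.

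A gene was tested where it reached 1 FPKM in at least 3 libraries of its set, which 92 members did in set 1 and 89 in set 2. Cox8c was listed at 0 in every library, and Cox6a2 never exceeded 0.901 FPKM. Ndufb6, Ndufaf2 and Ndufaf3 passed in set 1 and not in set 2. Ndufb6, a membrane-arm subunit of complex I, was between 148 and 168 FPKM in set 1 and between 0 and 1.65 FPKM in set 2. The assembly factor Ndufaf2 was between 50.3 and 69.9 FPKM in set 1 and listed at 0 in all of set 2, and Ndufaf3 was between 21.9 and 30.6 FPKM in set 1 and between 0.388 and 1.10 FPKM in set 2. The low values hold for all 6 genotypes of set 2, WT included. At the edge of the filter, Cox7b2 reached 1 FPKM in 4 libraries of each set, while Ndufaf3 and Ndufb6 did so in 2 libraries of set 2.

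The members moved together from mouse to mouse. After the mean of each genotype was removed, the median correlation between pairs of members was 0.67 over the 9 libraries of set 1 and 0.57 over the 28 libraries of set 2, and 0.47 over the 22 libraries left without those numbered 1. Points of such a correlation share a library and its scaling, so it is a description. A few genes ran against the common movement over all 28 libraries of set 2, and most of them did not without the libraries numbered 1. Over all libraries Atp5s, a factor related to ATP synthase assembly, had a correlation of -0.69 with the members' median, Cycs -0.42, Sdhd -0.34, Cox7b -0.33, Ndufc1 -0.27 and Ndufs1, the large iron-sulfur subunit of complex I, -0.20. Over the 22 other libraries the correlation was 0.83 for Sdhd, 0.64 for Cox7b, 0.41 for Ndufc1, 0.15 for Ndufs1, -0.02 for Cycs and -0.13 for Atp5s, and Sdha was the lowest at -0.46.

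The common movement can be read as each library's median over members, set against the WT mean on the log2 scale. In set 1 it was between -0.004 and 0.02 in dupKIHom, between -0.25 and 0.03 in Atxn3KO and between -0.05 and 0.04 in WT. A single Atxn3KO library, number 2, gave the -0.25, and the other 2 knockout libraries lay within 0.04 of 0. In set 2, leaving aside the libraries numbered 1, the 3 KIHet libraries lay between 0.12 and 0.14 and the 3 KIHom libraries between 0.12 and 0.13. The 5 dupKIHet libraries spread from -0.14 to 0.12 and the 5 WT libraries from -0.07 to 0.12, while YACQ84 lay between -0.02 and 0.04 and YACQ15 between -0.03 and 0.008. The single knock-ins were thus high and tightly grouped, and dupKIHet and WT were wide and overlapped.

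**Figure D2:**
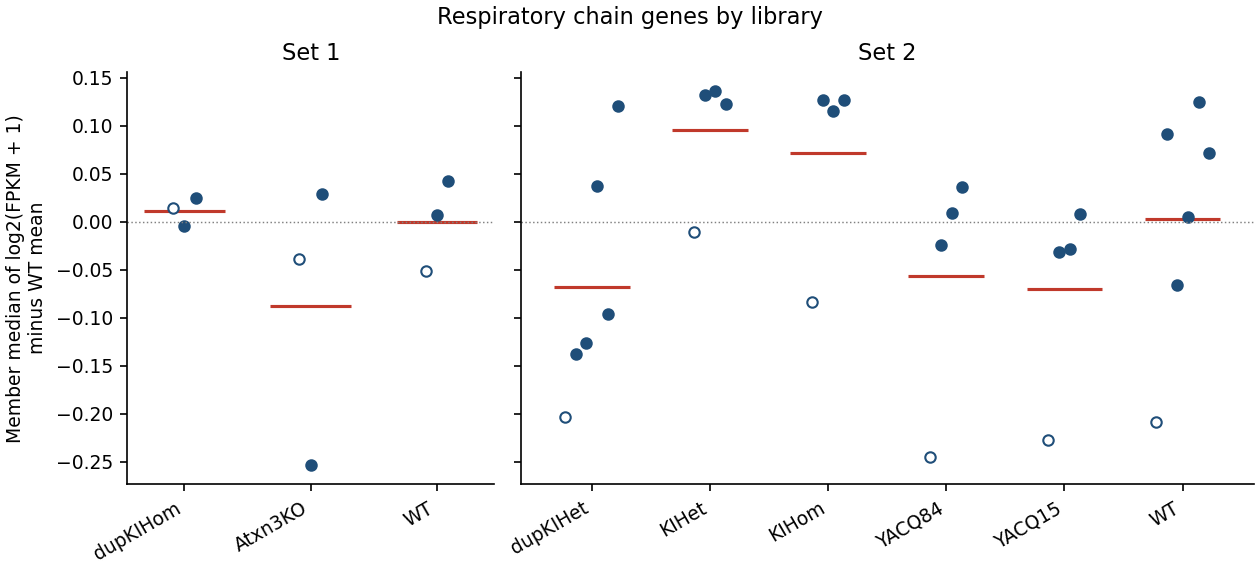
Median over members of log2(FPKM + 1) minus the WT mean, by library and genotype, for both sets; open circles are the libraries numbered 1 and red lines are group means. In set 2 the open circles lie lowest in each genotype, and KIHet and KIHom otherwise sit at 0.12 to 0.14.

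In set 1 the median level of respiratory chain transcripts in the homozygous duplicated knock-in was close to WT. No member passed the test in dupKIHom against WT (limma, adjusted p under 0.05 over all genes), where 1.64% of all tested genes did, and 3 of 92 members had an unadjusted p under 0.05 against 12.3% of all genes. The median log2 fold change over members was 0.01, with 48 of 92 above 0, against 0.02 over all genes. The 95% confidence interval lay within 0.5 log2 units of 0, a 1.41-fold change, for 86 of the 92 members, while the other 6 intervals were wider or lay further out. In the same comparison 9 of 14 oligodendrocyte and 8 of 12 astrocyte markers were lower in dupKIHom, with medians of -0.74 and -0.68, and their part in the members' values was not tested.

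The largest value was a rare isoform. Cox7b2, a relative of the complex IV subunit Cox7b, was 1.195, 1.198 and 1.62 FPKM in dupKIHom and 0.387, 0.331 and 0.259 FPKM in WT. The groups did not overlap, and the log2 fold change was 0.81 ± 0.19 (SE) with adjusted p = 0.0612 (limma). Cox7b2 passed when only dupKIHom and WT were fitted (adjusted p = 0.0181), when libraries over 1000 FPKM of Ttr were left out (0.0215) and when libraries were rescaled to a common total (0.0244). In the other settings it did not pass. Every dupKIHom library reached 1 FPKM of Cox7b2 and no WT library did. Of the 4 libraries of set 1 that reached 1 FPKM of Cox7b2, 3 were dupKIHom. In the main fit it thus met the filter only through the group where it was high. The same holds with dupKIHom and WT fitted alone and without libraries over 1000 FPKM of Ttr. That last setting kept every dupKIHom and WT library. Its value and its passing in these fits are therefore no separate support. Next highest were Cox6b2 at 0.64 ± 0.33 (adjusted p = 0.478) and Cox7a1 at 0.40 ± 0.16 (adjusted p = 0.327). At the other end stood the assembly factor Ndufaf4 at -0.15 ± 0.09, Ndufa4l2 at -0.14 ± 0.12 and the complex I subunit Ndufc1 at -0.12 ± 0.10, with adjusted p between 0.593 and 0.744. Atp5g2 was 120, 120 and 118 FPKM in dupKIHom and 110, 101 and 105 FPKM in WT, without overlap, and its log2 fold change was 0.17 ± 0.06 (adjusted p = 0.292).

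In Atxn3KO the members' median was slightly below WT, by an amount that rested on 1 mouse, and no member passed. In Atxn3KO against WT limma called 0 of 92 members and 0.0142% of all genes, with 5 members at an unadjusted p under 0.05 against 6.47% of all genes. The median was -0.08, 6 members lay above 0, and the median by complex ran from -0.10 in complex IV to -0.06 in complex III. Cox5a, a complex IV subunit, was 351, 326 and 361 FPKM in Atxn3KO and 376, 382 and 385 FPKM in WT, and Ndufb5, an accessory subunit of complex I, was 177, 168 and 182 FPKM in Atxn3KO and 192, 189.8 and 201 FPKM in WT. Neither pair of groups overlapped, and the log2 fold changes were -0.14 ± 0.06 for Cox5a (adjusted p = 0.758) and -0.14 ± 0.05 for Ndufb5 (adjusted p = 0.681). The lowest values were Cox7a1 at -0.28 ± 0.16, the ATP synthase subunit g Atp5l at -0.22 ± 0.10 and the epsilon subunit Atp5e at -0.22 ± 0.09. Cox6b2 (0.73 ± 0.33), Cox7b2 (0.34 ± 0.19) and Cox4i2 (0.12 ± 0.18) were the highest. Without Atxn3KO library 2 the median was -0.005, without library 1 it was -0.10 and without library 3 it was -0.14. Oligodendrocyte markers summed to between 9843 and 10050 FPKM in Atxn3KO and 11156 and 12239 FPKM in WT, with 0 of 14 called and 13 at an unadjusted p under 0.05, and their part was not tested.

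The 2 mutants of set 1 were also set against each other. In dupKIHom against Atxn3KO limma again called 0 of 92 members, against 1.27% of all genes. The median was 0.10 with 81 members above 0, and all 13 members with an unadjusted p under 0.05, against 12.0% of all genes, were higher in dupKIHom. Cox7a1 came nearest, at 19.9, 18.8 and 21.7 FPKM in dupKIHom and 12.8, 10.0 and 14.4 FPKM in Atxn3KO, a log2 fold change of 0.67 ± 0.16 with adjusted p = 0.0762 and no overlap. Cox6a1, the common partner of Cox6a2, was 713, 663 and 634 FPKM in dupKIHom and 633, 501 and 566 FPKM in Atxn3KO, at 0.25 ± 0.08 (adjusted p = 0.225). After a trend of fold change with transcript length was removed, the median was 0.04. Without Atxn3KO library 2 it was 0.02, so the displacement rested on that library.

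Against WT in set 2, the duplicated and the single knock-ins lay on opposite sides. In dupKIHet the median over members was -0.07 with 9 of 89 above 0, in KIHet 0.10 with 82 above 0 and in KIHom 0.07 with 74 above 0, while the all-gene medians were 0.006, -0.02 and -0.02. Limma called 0 of 89 members in each of these 3 comparisons. Over all genes it called 2.55% in dupKIHet, 0.115% in KIHet and 0.601% in KIHom. With a term for the libraries numbered 1 it called 1 member in dupKIHet, 1 in KIHet and 2 in KIHom. In that fit it called 5.50%, 0.878% and 2.59% of all genes. At an unadjusted p under 0.05 there were 4 members in dupKIHet, 10 in KIHet and 11 in KIHom, against 12.7%, 10.6% and 13.0% of all genes. The 3 comparisons share the 6 WT libraries, so their values are not independent of each other. Without the libraries numbered 1 the medians were -0.09 in dupKIHet, 0.08 in KIHet and 0.08 in KIHom. Cytosolic ribosomal protein genes had medians of the same signs, -0.09, 0.12 and 0.10, with 0 called. In dupKIHet 8 of 12 astrocyte and 7 of 12 oligodendrocyte markers were lower and 3 of 15 endothelial and mural markers higher, while in KIHet 1 oligodendrocyte marker was lower and in KIHom 4 oligodendrocyte, 2 endothelial or mural and 1 astrocyte marker were. The part of these cell type markers in the members' displacement was not tested. Confidence intervals lay within 0.5 log2 units of 0 for 85 members in dupKIHet, 83 in KIHet and 84 in KIHom.

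Ndufs7, a core subunit that holds the last iron-sulfur cluster before ubiquinone, had the lowest p among members in dupKIHet. It was 92.1, 86.3, 89.8, 105, 96.7 and 108 FPKM in dupKIHet and 97.2, 106, 105, 111, 117 and 115 FPKM in WT. The groups overlapped, and the log2 fold change was -0.17 ± 0.07 (SE, adjusted p = 0.210). Ndufs7 passed with a term for the libraries numbered 1 (adjusted p = 0.0437), after the length trend was removed (0.0489) and with median-ratio scaling (0.0487). Of the other settings it passed only with the replicate number as a block. With the term for the libraries numbered 1, 5.50% of all genes passed. Cox6b2, Cox8b and Sdha were highest in dupKIHet against WT, at 0.45 ± 0.24, 0.16 ± 0.24 and 0.10 ± 0.12, and Cox7a1 and the complex I subunit Ndufb2 lowest, at -0.37 ± 0.23 and -0.19 ± 0.11.

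In the single knock-ins the genes nearest to the threshold were higher. Cox6b1, which faces the intermembrane space in complex IV, was 714, 724, 724 and 701 FPKM in KIHet and 671, 703, 730 and 721 FPKM in KIHom. In WT it was 567.9, 693, 571, 618, 699.7 and 658 FPKM, below every KIHet library. Cox6b1 had log2 fold changes of 0.18 ± 0.07 in KIHet (adjusted p = 0.336) and 0.16 ± 0.07 in KIHom (adjusted p = 0.2996). Ndufs4, a complex I accessory subunit whose loss causes Leigh syndrome in humans, was 55.8, 57.5, 59.7 and 54.4 FPKM in KIHom and between 47.3 and 54.6 FPKM in WT, at 0.18 ± 0.06 (adjusted p = 0.168). Those values overlapped by a single pair, 54.4 FPKM in KIHom and 54.6 FPKM in WT. Other highest members were Cox8b (0.40 ± 0.26) and Cox4i2 (0.22 ± 0.14) in KIHet, and Cox6b2 (0.36 ± 0.27) and the complex III subunit Uqcrq (0.18 ± 0.17) in KIHom. Ndufa4l2 was among the lowest in both, at -0.12 ± 0.14 in KIHet and -0.13 ± 0.14 in KIHom, beside Cox7a1 at -0.19 ± 0.25 in KIHet and the assembly factor Ndufaf6 at -0.14 ± 0.14 in KIHom.

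With the human transgenes no member passed, and the medians over members lay slightly below WT. In YACQ84 against WT the median was -0.06 with 6 of 89 members above 0, in YACQ15 against WT it was -0.07 with 9 above 0, and in YACQ84 against YACQ15 it was 0.01 with 53 above 0. Without YACQ84 library 1 the first was 0.0061, without YACQ15 library 1 the second was -0.013, and without all libraries numbered 1 they were -0.04 and -0.06. Limma called 0 members in all 3, where all-gene calls were 0.547%, 0.0135% and 0.263%, and the members at an unadjusted p under 0.05 numbered 0, 3 and 0, against 7.27%, 4.51% and 6.00% of all genes. For YACQ84 against YACQ15, 84 of the 89 confidence intervals lay within 0.5 log2 units of 0. Ndufa13, a complex I accessory subunit also known as GRIM-19, was 80.1, 85.9, 85.4 and 81.9 FPKM in YACQ15 and between 87.0 and 108 FPKM in WT, without overlap, at -0.18 ± 0.07 (adjusted p = 1.00). The ends of the YACQ15 comparison were Cox6b2 at 0.22 ± 0.27 and Cox8b at -0.37 ± 0.26, and those of YACQ84 were Cox6b2 at 0.18 ± 0.27 and Cox7b2 at -0.30 ± 0.19. Ndufab1 stood at -0.22 ± 0.38 in YACQ15, and that value reversed without libraries over 1000 FPKM of Ttr. Its level in the libraries numbered 1 is described further on.

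By complex, the medians of 1 comparison mostly had the same sign, and no test between complexes was made. In KIHet against WT the medians were 0.09, 0.03, 0.11, 0.10 and 0.11 for complexes I to V, in KIHom 0.07, 0.04, 0.06, 0.06 and 0.09, and in dupKIHet -0.07, -0.03, -0.09, -0.08 and -0.06. In YACQ84 they were -0.06, -0.07, -0.07, -0.06 and -0.05, and in YACQ15 -0.07, -0.08, -0.10, -0.08 and -0.07. Complex II has only 4 genes, which did not move together: in KIHet against WT Sdha was at -0.24 ± 0.13 while Sdhb, Sdhc and Sdhd had a positive sign. Within complex I the 28 accessory subunits had a median of 0.10 in KIHet and the 7 core subunits 0.03, and in complex V the 10 Fo and stalk genes had 0.12 and the 5 F1 genes 0.06. These differences between subgroups were not tested.

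**Figure D3:**
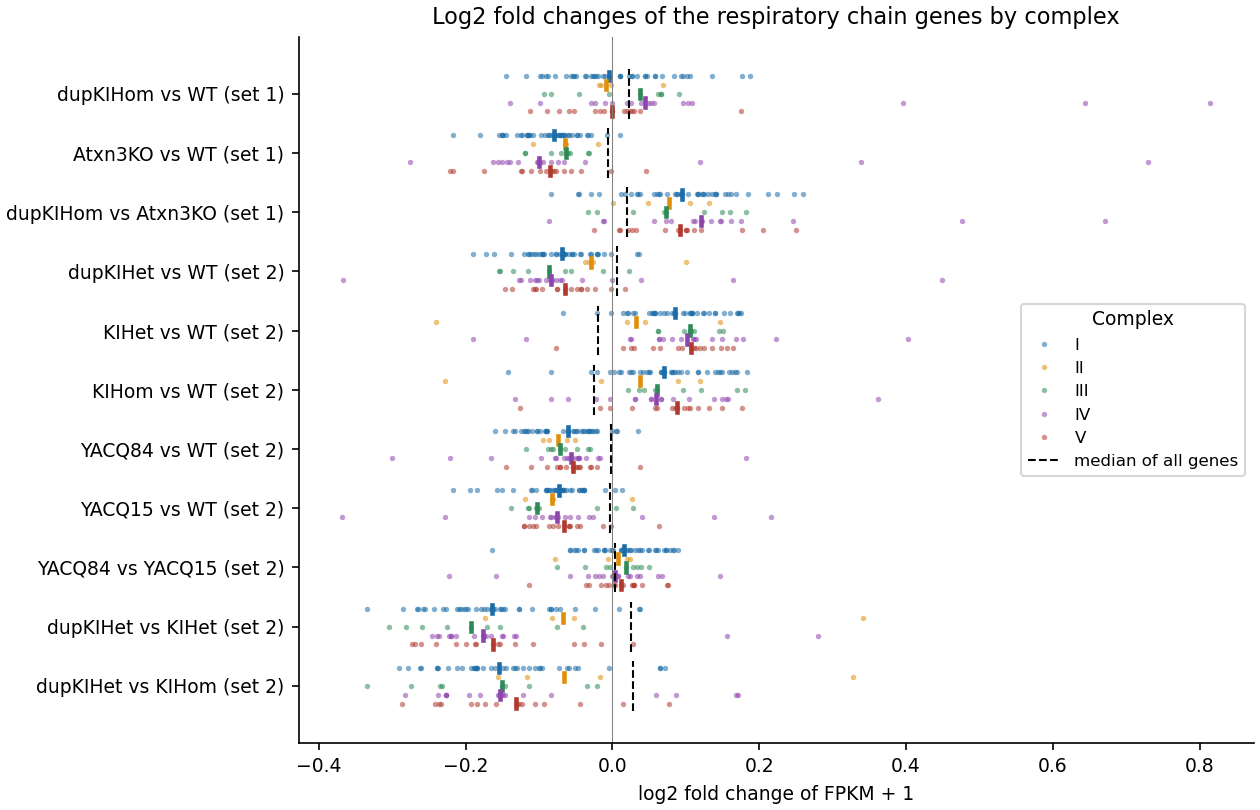
Log2 fold changes of the tested members in each comparison, with the tested genotype named first; points are members, coloured ticks are medians by complex and the dashed line is the median of all genes tested. Members lie mostly above 0 in KIHet and KIHom, mostly below 0 in dupKIHet, YACQ84, YACQ15 and Atxn3KO against WT, and lowest in dupKIHet against KIHet and KIHom.

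Scaling and length were checked because these are short, abundant transcripts. The members' median transcript length was 713.5 bases in set 1 and 716 in set 2, against 2115 and 2044 bases for all tested genes with a length, and 91.3% of members in set 1 and 91.0% in set 2 were under 1500 bases. Removing the trend of fold change with length left every median against WT on its side of 0 except dupKIHom, which went to -0.02. The corrected medians were -0.05 in dupKIHet, 0.09 in KIHet, 0.08 in KIHom, -0.05 in YACQ84, -0.06 in YACQ15 and -0.06 in Atxn3KO. Median-ratio scaling gave -0.07, 0.12 and 0.10 in dupKIHet, KIHet and KIHom. Rescaling each library to the same sum moved the all-gene median of dupKIHom against Atxn3KO to 0.13, and that of every other comparison by less than 0.1 log2 units. Over all settings, fits with a library left out included, the members' median against WT ranged from -0.13 to -0.0095 in dupKIHet. It ranged from 0.06 to 0.14 in KIHet, 0.04 to 0.12 in KIHom, -0.10 to 0.0061 in YACQ84 and -0.12 to -0.013 in YACQ15. In set 1 it ranged from -0.02 to 0.05 in dupKIHom and from -0.25 to -0.0047 in Atxn3KO. The -0.25 is the value of Atxn3KO library 2 alone, the only knockout library left without those over 1000 FPKM of Ttr.

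Duplicated and single knock-ins were then set against each other directly, a comparison added after the medians against WT had been seen. In dupKIHet against KIHet 10 of 89 members passed, all lower in dupKIHet, against 10.7% of all genes in either direction, 7.84% higher and 2.82% lower. In dupKIHet against KIHom 12 members passed, all lower, against 9.85% of all genes in either direction, 7.5% higher and 2.34% lower. In this fit the share of members called in either direction was near that of all genes, and the lower side held all of the called members. The medians over members were -0.17 and -0.15, with 7 and 10 members above 0, against all-gene medians of 0.03 in both. Both comparisons use the same 6 dupKIHet libraries and are given side by side. Without the libraries numbered 1, 19 members passed against KIHet (18 lower) and 27 against KIHom (26 lower), where 12.1% and 12.0% of all genes did, and the exception each time was Sdha. With a term for those libraries 58 and 45 members passed, where 25.1% and 21.9% of all genes did. Fitted with the 2 genotypes alone, the counts were 1 and 2, where 4.93% and 6.77% of all genes passed. Against KIHet 3 members passed without dupKIHet library 2 or 3, where 7.23% and 7.46% of all genes did. The count was 4 without dupKIHet library 5 (6.94% of all genes) or without KIHet library 1, 2 or 3 (6.02%, 6.72% and 8.82%). Without dupKIHet library 6 it was 23 (13.6% of all genes). Against KIHom 4 passed without dupKIHet library 2, 3 or 5, where 7.14%, 7.05% and 6.13% of all genes did. The count was also 4 without KIHom library 2 or 3 (6.93% and 6.44% of all genes). Without dupKIHet library 6 it was 18 (12.3% of all genes), while the remaining libraries left 8 to 12. For those remaining libraries against KIHom, 5.91% to 9.77% of all genes passed.

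Against both single knock-ins, Atp5f1, Atp5j2, Atp5l and Atp5o of the ATP synthase stalk and membrane part, the complex IV subunits Cox6b1 and Cox7a2, and the complex I subunits Ndufb3 and Ndufs4 passed. Cox5a and Ndufs7 passed against KIHet alone, and Atp5k, Cox6c, Cox7a2l, a supercomplex factor, and Ndufc2 against KIHom alone. All 10 Fo and stalk genes had a negative sign in both comparisons, with medians of -0.19 and -0.18, and so did all 11 common complex IV subunits, with medians of -0.19 and -0.18. The 5 F1 genes had medians of -0.11 and -0.12 and the 7 core subunits of complex I -0.08 and -0.10, and no test of these subgroups against each other was made.

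Promoters of 4 genes are shown because they carry the pattern: Atp5o, Cox6b1 and Ndufs4 were lower in dupKIHet and Sdha was not. Each is 300 bases, 250 before to 50 after the annotated start, 5′ to 3′ on the gene's strand, from RefSeq on GRCm38.p6, a later build than the mm8 named for the expression values. Capitals mark matches, on either strand, to the motif letters of nuclear respiratory factor 1 (NRF-1, GCGCA and GCGC with any base between them), of ETS factors such as GABP (CCGGAAG) or of YY1 (AANATGGCG), which are known regulators of respiratory genes. The windows are chr13:74350191-74350490 (minus strand) for Sdha, chr16:91931581-91931880 (minus) for Atp5o, chr7:30626065-30626364 (minus) for Cox6b1 and chr13:114388045-114388344 (minus) for Ndufs4.
Sdha: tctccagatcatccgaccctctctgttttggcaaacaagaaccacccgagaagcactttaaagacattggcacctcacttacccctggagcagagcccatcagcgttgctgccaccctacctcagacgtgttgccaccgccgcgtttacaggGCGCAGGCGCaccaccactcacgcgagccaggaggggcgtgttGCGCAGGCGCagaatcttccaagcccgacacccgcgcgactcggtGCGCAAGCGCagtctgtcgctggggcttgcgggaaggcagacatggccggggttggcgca
Atp5o: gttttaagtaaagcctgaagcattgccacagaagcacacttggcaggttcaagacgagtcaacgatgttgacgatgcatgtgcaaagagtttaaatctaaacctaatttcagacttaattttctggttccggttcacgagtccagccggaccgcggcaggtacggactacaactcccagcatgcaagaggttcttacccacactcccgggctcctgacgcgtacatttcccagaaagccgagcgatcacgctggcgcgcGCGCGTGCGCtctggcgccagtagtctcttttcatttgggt
Cox6b1: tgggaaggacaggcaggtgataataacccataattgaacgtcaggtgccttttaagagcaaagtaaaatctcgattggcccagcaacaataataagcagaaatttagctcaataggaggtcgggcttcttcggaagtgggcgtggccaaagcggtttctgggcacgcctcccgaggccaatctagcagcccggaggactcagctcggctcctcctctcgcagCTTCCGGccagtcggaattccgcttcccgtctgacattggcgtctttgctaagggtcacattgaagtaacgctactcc
Ndufs4: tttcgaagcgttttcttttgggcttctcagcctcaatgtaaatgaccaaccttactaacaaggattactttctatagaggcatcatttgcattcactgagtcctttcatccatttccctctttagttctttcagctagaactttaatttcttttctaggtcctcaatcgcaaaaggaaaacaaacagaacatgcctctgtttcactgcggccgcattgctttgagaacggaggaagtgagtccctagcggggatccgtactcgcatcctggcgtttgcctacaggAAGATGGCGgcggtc
Sdha holds 3 NRF-1 matches and Atp5o 1, Cox6b1 holds 1 ETS match and Ndufs4 1 YY1 match downstream of its start, near the end of the window. Of the 77 members with a promoter in the table, 18 (23.4%) held the NRF-1 letters, against 4.78% of 27025 genes. ETS letters stood in 16 (20.8%) against 9.12% and YY1 letters in 9 (11.7%) against 2.51%. The 27025 genes were taken whether or not they were expressed in the pons. Shares among expressed genes, to which most members belong, were not computed. By complex the NRF-1 letters were in 9 of 38 promoters of complex I, 2 of 3 of complex II, 1 of 5 of complex III, 1 of 14 of complex IV and 5 of 16 of complex V. A match is a description of these letters and not of binding.

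Atp5o, the stalk subunit that links F1 to the membrane part and is known as OSCP, was 274, 267, 268, 299.9, 268 and 324 FPKM in dupKIHet. It was 347, 340, 341 and 329 FPKM in KIHet, 324, 338, 335 and 337 FPKM in KIHom, and between 275 and 332 FPKM in WT. All 6 dupKIHet libraries lay below the 4 KIHet libraries, and the WT range overlapped both. Atp5o had log2 fold changes of -0.26 ± 0.06 against KIHet (adjusted p = 0.00884) and -0.24 ± 0.06 against KIHom (adjusted p = 0.0174). Atp5j2, the membrane subunit f, was 135, 128, 140.1, 136, 134 and 165 FPKM in dupKIHet, against 179, 174, 160.2 and 161 FPKM in KIHet and 168, 173, 173 and 166 FPKM in KIHom. Only dupKIHet library 6 reached the KIHet values, and none reached KIHom. Its log2 fold changes were -0.27 ± 0.06 (adjusted p = 0.00605) and -0.29 ± 0.06 (adjusted p = 0.00495).

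Cox6b1 was 573, 566, 568.1, 622, 601 and 698 FPKM in dupKIHet, below all 4 KIHet libraries and overlapping KIHom only through library 6. The log2 fold changes of Cox6b1 were -0.25 ± 0.07 against KIHet (adjusted p = 0.0190) and -0.23 ± 0.07 against KIHom (adjusted p = 0.0316). Ndufs4 was 49.3, 42.3, 43.4, 49.9, 47.0 and 52.7 FPKM in dupKIHet, against 57.8, 56.2, 53.6 and 48.4 FPKM in KIHet. All dupKIHet libraries lay below KIHom, at -0.26 ± 0.06 (adjusted p = 0.00687), and they overlapped KIHet, at -0.19 ± 0.06 (adjusted p = 0.0438). Ndufs4 no longer passed against KIHet after the length trend was removed (adjusted p = 0.175) or without the libraries numbered 1 (0.110). Ndufs7 was 107, 120.2, 107 and 127 FPKM in KIHet, each above 5 of the 6 dupKIHet libraries, at -0.26 ± 0.07 (adjusted p = 0.0240).

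Sdha went the other way. It was 399.6, 510.2, 530.0, 497, 538 and 488 FPKM in dupKIHet, 300.4, 427, 411 and 429 FPKM in KIHet, 321, 407, 418 and 429.6 FPKM in KIHom, and 377, 446, 504, 501, 455 and 480.1 FPKM in WT. The lowest library of each genotype is the library numbered 1, and the other dupKIHet libraries lay above all KIHet and KIHom libraries. With all libraries the log2 fold changes of Sdha were 0.34 ± 0.13 against KIHet (adjusted p = 0.0935) and 0.33 ± 0.13 against KIHom (adjusted p = 0.113). Without the libraries numbered 1 they were 0.28 ± 0.055 and 0.29 ± 0.055, each with adjusted p = 0.0053. The partner subunits did not follow, with Sdhb at -0.05 ± 0.13 and -0.02 ± 0.13, Sdhc at -0.08 ± 0.07 and -0.16 ± 0.07, and Sdhd at -0.17 ± 0.07 and -0.12 ± 0.07.

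**Figure D4:**
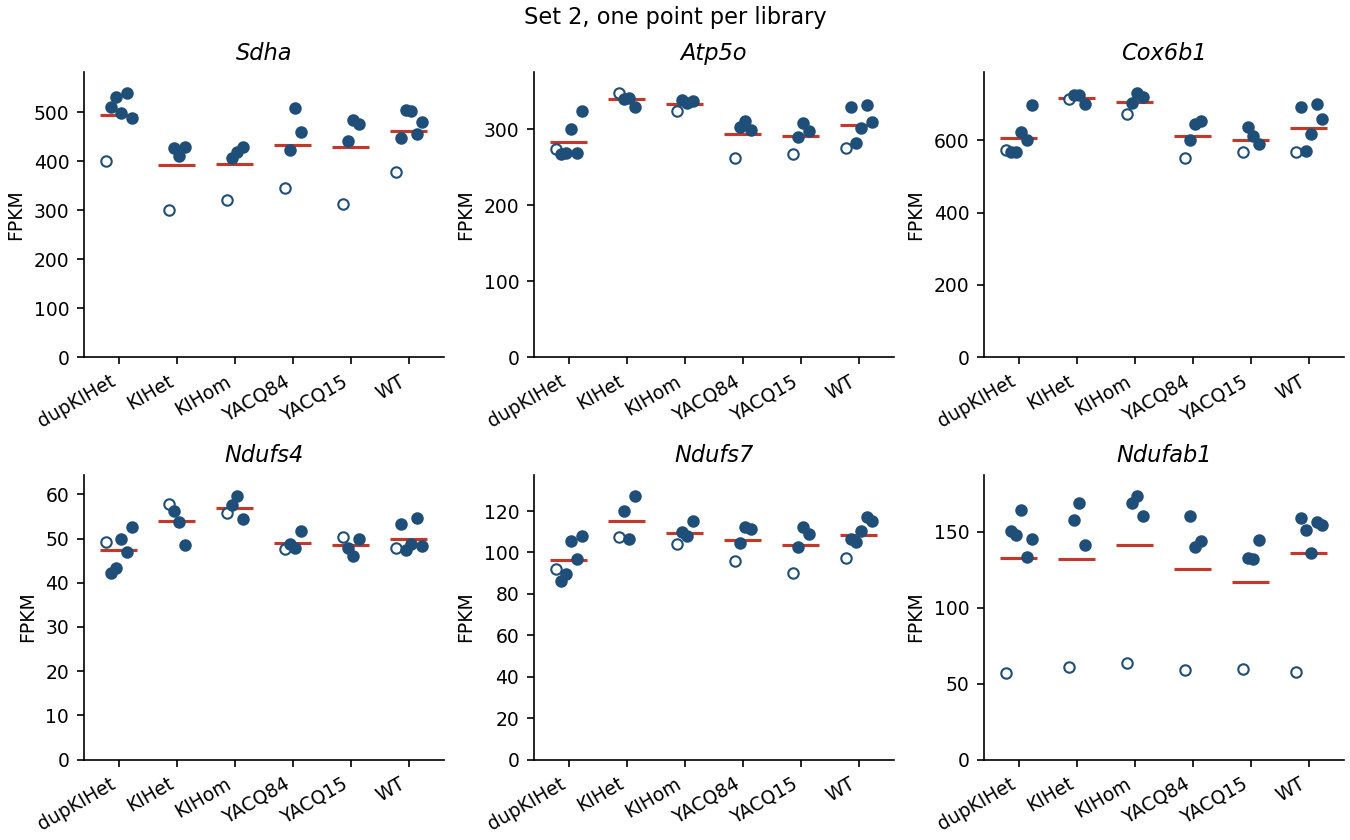
FPKM by library and genotype in set 2 for Sdha, Atp5o, Cox6b1, Ndufs4, Ndufs7 and Ndufab1; open circles are the libraries numbered 1 and red lines are group means. Atp5o and Cox6b1 are lower in every dupKIHet library than in KIHet, Sdha is higher in dupKIHet apart from the open circles, and Ndufab1 has open circles between 56.97 and 63.5 FPKM in every genotype.

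Of 18 regulators of mitochondrial biogenesis, 3 passed in each comparison and all were higher in dupKIHet, where 7.84% and 7.5% of all genes were called higher. They were Ppargc1a, Ppargc1b and Pprc1, coactivators of the PGC-1 family, which is known to drive respiratory genes in muscle and brown fat. Ppargc1a was 22.7, 24.4, 25.8, 26.9, 31.6 and 22.1 FPKM in dupKIHet, against 16.8, 17.6, 24.0 and 20.4 FPKM in KIHet and 15.7, 21.8, 20.7 and 18.7 FPKM in KIHom. Only KIHet library 3 reached into the dupKIHet range. The log2 fold changes of Ppargc1a were 0.37 ± 0.11 against KIHet (adjusted p = 0.0310) and 0.40 ± 0.11 against KIHom (adjusted p = 0.0208), and without the libraries numbered 1 it missed the threshold (adjusted p = 0.0632 and 0.0585). Ppargc1b stood at 0.37 ± 0.12 and 0.41 ± 0.12 (adjusted p = 0.0498 and 0.0299) and Pprc1 at 0.38 ± 0.11 and 0.36 ± 0.11 (adjusted p = 0.0333 and 0.0453); without the libraries numbered 1, Ppargc1b alone passed, against KIHom (0.0362). Nrf1, which encodes NRF-1, averaged 6.34 ± 0.84 FPKM in dupKIHet (SD, n = 6) and 5.80 ± 1.45 FPKM in KIHet (SD, n = 4), at 0.13 ± 0.13 (adjusted p = 0.604).

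Other gene groups moved beside the members in these 2 comparisons, and their part in the result was not tested. Of 76 cytosolic ribosomal protein genes, also short and abundant, 11 were lower and 1 higher in each, with medians of -0.21 and -0.20. Of 77 mitochondrial ribosomal protein genes 4 and 2 were lower, with medians of -0.10. Citric acid cycle genes had medians of -0.01 and 0.03 over 18 genes, and 22 glycolysis genes -0.06 and -0.05. Mitochondrial import genes had -0.12 and -0.06 over 21 genes, antioxidant and uncoupling genes -0.09 and -0.07 over 18, and other respiratory assembly factors -0.02 and 0.02 over 32. Neuronal markers had medians of -0.01 and 0.01 over 16 genes. Astrocyte markers summed to between 1516 and 1670 FPKM in dupKIHet, below KIHet (2133 to 2239) and KIHom (2095 to 2145), and 8 and 7 of 12 were lower. Of 12 oligodendrocyte markers 3 and 1 were lower, with medians of -0.15 in both; Mbp, which belongs to that list, was listed at 0 in dupKIHet and not tested. The mitochondrially encoded genes listed at 0 in dupKIHet and expressed in KIHet and KIHom also lie between these groups. Endothelial and mural markers summed to between 153 and 195 FPKM in dupKIHet, against 106 to 146 FPKM in KIHet and 104 to 143 FPKM in KIHom, and 9 and 10 of 15 were higher. In bulk tissue fewer cells of a type and less RNA per cell cannot be told apart. Among genes under 800 bases the members' median in dupKIHet against KIHet was -0.20 and that of the 2243 other genes -0.02, and after the length trend was removed the medians over all members were -0.15 and -0.13.

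The libraries numbered 1 of set 2 held less of most members. With a term for these 6 libraries, 64 of 89 members were lower and 5 higher (limma), against 41.7% of all genes lower and 13.7% higher, and the median was -0.19 against -0.09 over all genes. Ndufab1, the mitochondrial acyl carrier protein that is also a complex I subunit, differed most. It was 56.97 FPKM in dupKIHet, 60.8 in KIHet, 63.5 in KIHom, 59.1 in YACQ84, 59.4 in YACQ15 and 57.9 in WT in the libraries numbered 1, against 132 to 174 FPKM in the other 22. The shift was -1.33 ± 0.04 log2 units (adjusted p = 1.3e-17). Cox7a1 (-0.61 ± 0.14), the NADH-binding flavoprotein Ndufv1 (-0.55 ± 0.04), Uqcrq (-0.55 ± 0.05) and Atp5b (-0.54 ± 0.06) came next, and Sdha and Sdhb shifted by -0.42 ± 0.04 and -0.43 ± 0.02. Atp5s (0.22 ± 0.04), Cox7b (0.21 ± 0.05), Sdhd (0.18 ± 0.03), Cycs (0.15 ± 0.06) and Ndufc1 (0.14 ± 0.04) were the 5 that were higher. In the same libraries the mitochondrially encoded mt-Nd2 was between 9654 and 12259 FPKM, against 4919 to 7784 FPKM in the others. In set 1 the libraries numbered 1 differed in 0 members and 0% of genes, with 15.4% of genes at an unadjusted p under 0.05.

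Cox6b2 varied widely within genotypes, with an SD of 0.53 log2 units in set 1 and 0.44 in set 2, where Ndufab1 alone was higher at 0.62. In set 2 Cox6b2 was 17.2, 7.33, 11.2, 19.3, 10.0 and 18.2 FPKM in the dupKIHet libraries, in which Ttr was 2249, 20.2, 33.4, 2470.3, 14.2 and 1734 FPKM. The 3 dupKIHet libraries with the most Ttr were the 3 with the most Cox6b2. Without the libraries numbered 1 the slope of Cox6b2 on log2(Ttr + 1) within genotypes was 0.12 ± 0.02 log2 units per doubling (limma, adjusted p = 0.00448). Cox5b and Atp5g1 also passed, both higher with Ttr: Cox5b at 0.02 ± 0.0046 (adjusted p = 0.00833) and Atp5g1 at 0.03 ± 0.0064 (adjusted p = 0.0119), against 1.21% of all genes. The sign was positive for 82 of 89 members, against 49.7% of all genes. With all libraries of set 2, 0 members passed, where 1.53% of all genes did, and the median was -0.004, with 35 of 89 members above 0.

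**Figure D5:**
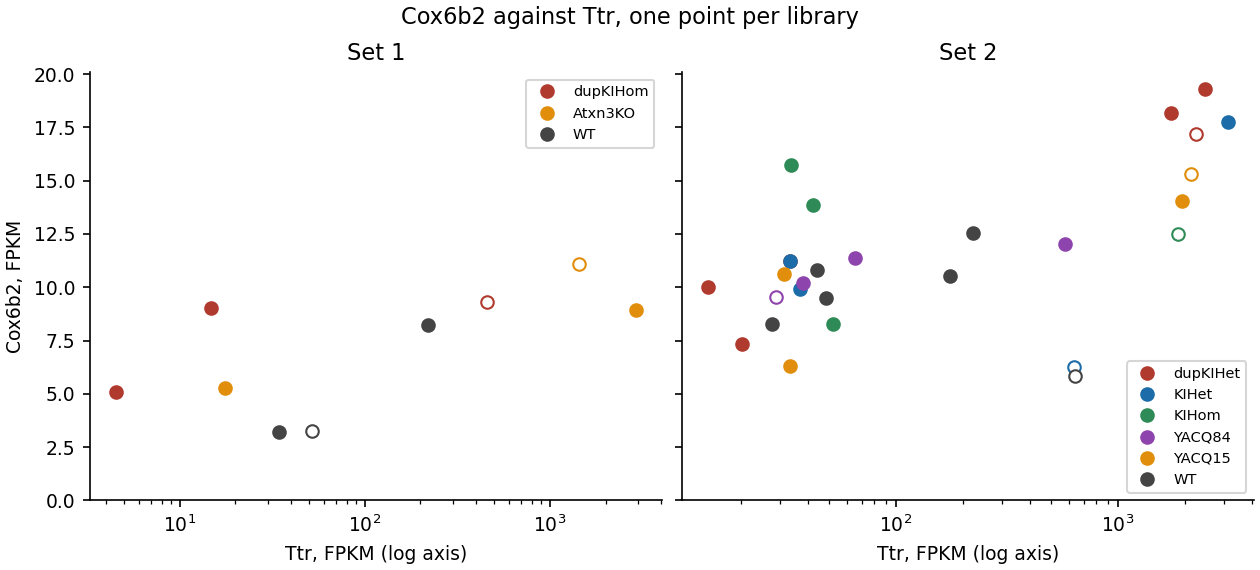
Cox6b2 in FPKM against Ttr in FPKM, with Ttr on a log axis, by library and genotype, in both sets; open circles are the libraries numbered 1. In set 2 Cox6b2 is highest, at 19.3 FPKM, in a dupKIHet library with 2470.3 FPKM of Ttr, and the libraries numbered 1 of KIHet and WT lie low, at 6.27 and 5.82 FPKM.

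In set 1, over all 9 libraries, the slope on Ttr was positive for 84 of 92 members and for 47.0% of all genes, with a median of 0.02 and 0 members called, against 0.121% of all genes. Atxn3KO held 1442, 17.6 and 2909 FPKM of Ttr, dupKIHom 457, 4.51 and 14.7 FPKM and WT 52.1, 34.6 and 218 FPKM. Library 2 of Atxn3KO, the knockout library with the lowest Ttr, is the library in which the members were lowest, and its cytosolic ribosomal genes were lower too, at -0.24. The only libraries of set 1 with less Ttr, dupKIHom libraries 2 and 3, had member medians of -0.004 and 0.02. A slope without Atxn3KO library 2 was not fitted. With Ttr as a covariate the median of Atxn3KO against WT was -0.14, and 0 members passed.

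Finally, the duplicated repeat was compared across sets by description alone, as the homozygous and heterozygous comparisons share no library. Over 89 members the log2 fold changes of dupKIHom and dupKIHet, each against its own WT, had a Pearson correlation of 0.14 and a Spearman correlation of -0.05, and 43 had the same sign. The genes share length and base composition, so no p is given.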

How the data were processed

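Pons RNA of 37 mice was analysed as deposited. The FPKM values are the authors' own. Tools listed in the submitters' processing notes, with no role given, include TopHat2, Cuffdiff, Trimmomatic and CASAVA 1.8.2, beside the build mm8. Library depth is unknown, so no counting error could be given, and 22 further labelled samples were not analysed here. The table had 41386 lines; 27 date-named lines were dropped and repeated symbols were reduced to 41227 genes. Values were tested as log2(FPKM + 1) with limma 3.58.1 (R 4.3.3; lmFit, then eBayes with a trend, 1 mean per genotype, two-sided), for genes with at least 1 FPKM in at least 3 libraries of the set, with Benjamini-Hochberg adjustment over all genes and a threshold of 0.05. Genes listed at 0 throughout a genotype while every library of another had at least 10 FPKM were left out of the tests, 1 in set 1 and 7 in set 2, none of them a member. A fold change on this scale understates changes of low genes. The fit was checked on simulated data with noise drawn independently for each gene and library. Shifts shared by many genes of a library were not simulated, so the check does not cover them. Python 3.11.15, pandas 2.3.3, numpy 2.4.6 and matplotlib 3.10.9 were used; transcript lengths came from Gencode M21. The 6 WT columns of set 2 were matched to their group, not to single samples. Replicate numbers were not shown to pair the mice. The members, lists and tests were chosen with earlier results of these data known. Genes named were Atxn3, every member called, the 3 highest and 3 lowest members against WT, the 2 most abundant per complex and the isoform pairs; others, among them Sdha's partners, the genes shown by library and the coactivators, were chosen after their values were seen. Comparisons of dupKIHet with KIHet and KIHom, and fits without or with a term for the libraries numbered 1, were added after seeing the data. Other settings were scaling, pseudocount, filter, length, Ttr, replicate block and each library left out.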

Additional observations from a re-analysis of the deposited data

Results flagged for a closer look

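Of 126 groups of 4 to 10 libraries checked, 14 had 1 library farther from the others than Dixon's 95% limit, and chance flags about 1 in 20 groups. In 11 of the 14 that library was numbered 1. The median over members of that library was -0.0105 in KIHet (others 0.122 to 0.136), -0.0833 in KIHom (0.116 to 0.127) and -0.228 in YACQ15 (-0.0319 to 0.00785), on the log2 scale against the WT mean. Ndufab1 was low in library 1 of dupKIHet at 56.97 FPKM (others 134 to 164), of KIHom at 63.5 (161 to 174), of YACQ15 at 59.4 (132 to 145) and of WT at 57.9 (136 to 159). Sdha was low in library 1 of dupKIHet at 399.6 FPKM (488 to 538) and of KIHet at 300.4 (411 to 429). Atp5j2 was low in library 1 of YACQ15 at 135 FPKM (others 143.4 to 143.6), and Cox7a2l was low in library 1 of YACQ84 at 122 FPKM (131 to 132). The remaining 3 were other libraries. In dupKIHet library 6, Atp5j2 was high at 165 FPKM (128 to 140.1) and Atp5k at 729 FPKM (575 to 624). In KIHet library 4, Atp5k was low at 646 FPKM (745 to 763).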

How the results depend on the processing

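Depth is unknown, and values near 1 FPKM and groups of 3 or 4 mice limit precision. The cause of each change below was not tested. Counts of members called are followed, in parentheses, by the share of all genes called in the same fit. In KIHet against WT the count became 7 (2.42%) with replicate number as a block and 1 (0.878%) with a term for the libraries numbered 1. The same settings gave 10 (4.77%) and 2 (2.59%) in KIHom and 3 (6.10%) and 1 (5.50%) in dupKIHet. In dupKIHet it was also 1 with the length trend removed (2.74%) and 1 with median-ratio scaling (2.66%). With a library left out dupKIHet gave 0 to 1 (1.76% to 3.19%). In dupKIHom against WT the count was 1 when rescaled to a common sum (0.523%) and with 2 genotypes only (2.00%). It was also 1 without libraries over 1000 FPKM of Ttr (1.92%). In dupKIHom against Atxn3KO it was 3 (1.53%) with Ttr as a covariate. It was 1 rescaled (0.622%), with 2 genotypes only (1.01%), with the length trend removed (1.81%) and under the block (1.88%). Leaving out libraries over 1000 FPKM of Ttr leaves library 2 alone for Atxn3KO, so no count is given for that fit. In dupKIHet against KIHet and KIHom it was 58 (25.1%) and 45 (21.9%) with the term and 64 (28.6%) and 64 (25.9%) under the block. Median-ratio scaling gave 31 (11.1%) and 27 (9.80%), and leaving out high Ttr gave 21 (12.2%) and 21 (8.57%). With 2 genotypes only it was 1 (4.93%) and 2 (6.77%), and without the libraries numbered 1 it was 19 (12.1%) and 27 (12.0%). With a library left out it was 3 to 23 (6.02% to 13.6%) and 4 to 18 (5.91% to 12.3%). Removing the length trend gave 17 (9.09%) against KIHet and no filter gave 7 (4.56%) against KIHom. The numbers share no stated origin, and 13 of 28 libraries of set 2 and 2 of 9 of set 1 lay nearest their own number. The median of Atxn3KO against WT with Ttr as a covariate was -0.14 over all members, -0.15 in complex I and -0.13 in complex III. Rescaled, it was -0.16 over all members and -0.16, -0.14, -0.14, -0.18 and -0.17 in complexes I to V. Without libraries over 1000 FPKM of Ttr it was -0.25 over all members, -0.27 in complex I, -0.25 in III and IV and -0.24 in V, and without the libraries numbered 1 it was -0.14 over all members, in I and in III, and -0.15 in IV. With a library left out it ranged from -0.14 to -0.0047 over all members, and -0.14 to -0.0092 in complex I, -0.11 to 0.025 in III, -0.14 to -0.0093 in IV and -0.14 to -0.021 in V, the high ends without Atxn3KO library 2; complex II of YACQ15 against WT ranged from -0.12 to 0.0062. Without libraries over 1000 FPKM of Ttr, dupKIHet against KIHet had -0.23 in complex V, dupKIHet against KIHom had -0.26 over all members, -0.33 in III, -0.29 in IV and -0.23 in V, and dupKIHom against Atxn3KO had 0.27 over all members, 0.28 in I and 0.30 in IV, with 0.19 in II when rescaled. The Ndufab1 log2 fold change, YACQ15 vs WT, reversed to 0.038 without libraries over 1000 FPKM of Ttr and ranged from -0.445 to 0.080 with a library left out.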
